A study of Arabidopsis thaliana with 8 samples.

Results

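The nucleolar ribosome biogenesis genes described here are 9 loci of Arabidopsis thaliana, chosen by locus identifier out of 33323 gene loci in the deposited table. They are the nucleolins NUC1 and NUC2, the fibrillarins FIB1 and FIB2, NOP56, NOP58, CBF5 (annotated as NAP57), PES and APUM24 (annotated as PUM24). No measured value entered the choice of loci, but they were chosen with earlier results of these data known. All 9 passed the filter on low values, a mean of at least 1 scaled read. The annotation names the nucleolins NUC-L1 and NUC-L2 and has no symbol for PES and NOP58. It describes PES (AT5G14520) as a pescadillo-like protein gene and NOP58 (AT5G27120) as a NOP56-like pre-RNA processing ribonucleoprotein gene.

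Total RNA came from wild-type seedlings of ecotype Columbia, aged 7 days in the series' design, and each of 4 groups had 2 libraries. CTRL seedlings were the control. Long heat, LHS, was 30 h at 37 °C. The groups LHSR12 and LHSR84 had the same heat and then a recovery at 22 °C, of 12 h in the first and 84 h in the second. Separate cultures are not mentioned for the libraries, and the spread behind each p-value may therefore be technical. Heat, recovery, plant age and time of day cannot be told apart.

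A value is called scaled reads here: the reads of a locus divided by one factor for its library. Reads at gene loci numbered 18891358 to 28341736 in the 7 libraries whose reads were recovered, which left out LHS replicate 1. Replicate libraries differed by a median of 0.26 on the log2 scale in CTRL and by 0.18 to 0.20 elsewhere. Markers of leaf mesophyll (3 genes), root (5) and epidermis (2) were above 0 in every library, and of 3 seed markers only SESA3 was at 0 in a library. In seedlings, fewer cells of a type and less RNA per cell cannot be told apart.

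The nucleolus is where RNA polymerase I makes the ribosomal RNA precursor and where it is modified, cut and joined with ribosomal proteins. Nucleolin binds ribosomal DNA chromatin and the precursor. Fibrillarin is the methyltransferase of the box C/D small nucleolar ribonucleoproteins, whose scaffold is NOP56 and NOP58. CBF5 is the pseudouridine synthase of the box H/ACA particles. PES, the plant Pescadillo, is needed for the large ribosomal subunit, and APUM24 is a nucleolar RNA-binding protein of the Pumilio family that takes part in precursor processing. Nucleolar genes are in general highly expressed in dividing and growing tissue.

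Promoters of such genes in plants are known to hold telo boxes and site II elements, so the members' promoters were searched for both. The window ran from 250 bases before to 50 bases after the annotated gene start in the RefSeq TAIR10.1 genome, on both strands. The searched letters were AAACCCTA for the telo box and TGGGCC or TGGGCT for site II (the reverse complement of TGGGCC shares its middle letters, so adjoining matches on the 2 strands can overlap). A telo box was found in 7 of 9 members, in 35.6% of 59 other ribosome biogenesis promoters and in 6.22% of 27443 protein-coding promoters. Either site II form was found in 6 of 9 members, in 67.8% of the other ribosome biogenesis promoters and in 21.7% of all. Both motifs were together in 5 members, in 22% of the other ribosome biogenesis promoters and in 2.20% of all promoters. PES held site II without a telo box, NUC2 and FIB2 a telo box without site II, and APUM24 neither. Matches are descriptions of letters and not shown to be bound.

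The 250 bases before the start are printed for 5 members. FIB1, NOP56 and NOP58 are shown because their upstream windows hold both motifs, and NUC1 and NUC2 because they are paralogs whose RNA moved differently. Capitals mark telo boxes and site II elements on either strand. Read 5′ to 3′ on the gene's strand, the windows are FIB1 at chr5:21293897-21294146 (plus strand), NOP56 at chr1:20986953-20987202 (minus), NOP58 at chr5:9540611-9540860 (plus), NUC1 at chr1:18097831-18098080 (plus) and NUC2 at chr3:6407947-6408196 (minus).
FIB1: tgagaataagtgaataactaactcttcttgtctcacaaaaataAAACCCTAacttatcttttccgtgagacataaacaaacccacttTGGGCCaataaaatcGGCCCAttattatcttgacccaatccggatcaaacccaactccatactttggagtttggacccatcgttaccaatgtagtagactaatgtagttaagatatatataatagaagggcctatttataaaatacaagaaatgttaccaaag
NOP56: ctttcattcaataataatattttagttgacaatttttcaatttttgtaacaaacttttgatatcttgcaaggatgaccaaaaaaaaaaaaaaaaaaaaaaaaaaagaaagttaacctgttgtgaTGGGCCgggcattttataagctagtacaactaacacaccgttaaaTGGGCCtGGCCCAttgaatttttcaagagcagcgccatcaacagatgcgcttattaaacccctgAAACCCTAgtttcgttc
NOP58: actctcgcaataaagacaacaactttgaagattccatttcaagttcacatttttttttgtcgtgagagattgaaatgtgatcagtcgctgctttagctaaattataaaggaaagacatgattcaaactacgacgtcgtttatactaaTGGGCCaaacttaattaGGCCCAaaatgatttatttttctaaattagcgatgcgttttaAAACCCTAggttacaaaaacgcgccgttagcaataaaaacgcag
NUC1: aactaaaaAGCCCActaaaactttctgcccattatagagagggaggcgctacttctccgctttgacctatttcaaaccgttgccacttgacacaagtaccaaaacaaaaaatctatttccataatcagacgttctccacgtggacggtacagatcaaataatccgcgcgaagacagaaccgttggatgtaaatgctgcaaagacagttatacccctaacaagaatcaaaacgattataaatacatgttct
NUC2: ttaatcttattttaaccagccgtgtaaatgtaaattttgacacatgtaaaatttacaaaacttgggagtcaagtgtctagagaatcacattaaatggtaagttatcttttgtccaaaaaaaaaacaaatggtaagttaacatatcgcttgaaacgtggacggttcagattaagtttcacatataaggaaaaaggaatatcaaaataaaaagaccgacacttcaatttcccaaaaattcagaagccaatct

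In the printed windows FIB1, NOP56 and NOP58 each have an inverted site II pair, TGGGCC followed by GGCCCA. NUC1 has 1 site II match, at bases -242 to -237 from the start, and NUC2 has no match before its start. The telo boxes of both nucleolin genes lie after it, at bases 2 to 9 and 38 to 45 in NUC1 and at 43 to 50 in NUC2. A heat shock element of 3 alternating units, a search chosen after the values were seen, had no match in the 9 windows. It matched in 0.481% of all promoters and in 1.69% of the 59 other ribosome biogenesis promoters, so 9 windows would rarely hold one.

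**Figure D1:**
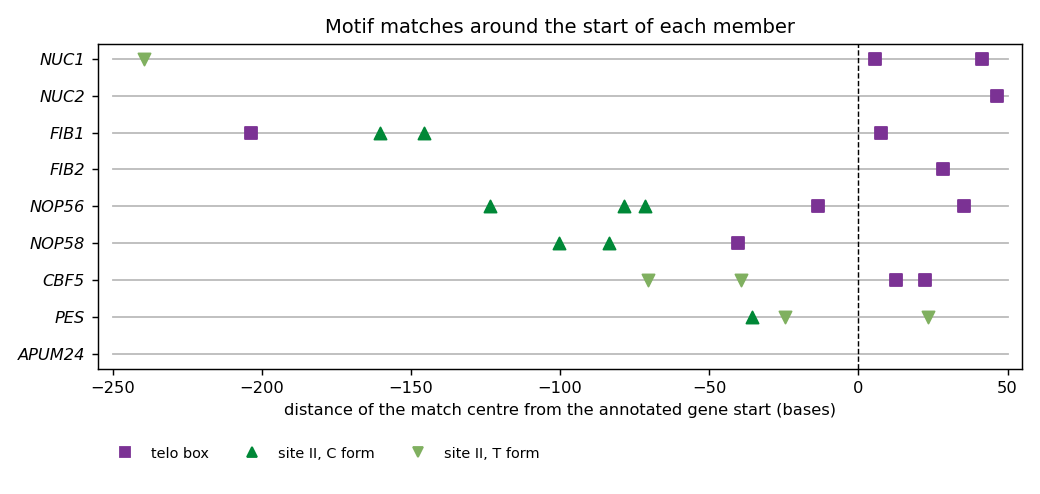
Matches to the telo box and to site II (C form TGGGCC, T form TGGGCT) around the annotated start of each member, by distance in bases, from 250 before to 50 after the start (dashed line). In 7 members a telo box lies within 50 bases of the start, and APUM24 has no match.

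At the end of heat most of these genes stood at their highest level. Both LHS libraries lay above every other library for 8 of 9 members, all but FIB2, and for 52 of 59 other ribosome biogenesis genes. The share of all gene loci with this order was not counted, so the order is a description only. Against CTRL, 7 members rose and 0 fell (limma, adjusted p below 0.05 over 27638 loci), beside 34.8% of 24624 gene loci called higher and 33.2% called lower. Among gene loci with a mean of at least 200 scaled reads, as all members have, 39.6% were called higher and 34.8% lower. The members' median log2 fold change was 1.14, and that of all gene loci tested was 0.03. The edgeR and DESeq2 fits held LHS replicate 2 as the only LHS library. At an unadjusted p below 0.05 the count of members lower was also 0, as it was with edgeR and DESeq2, and each of these tools called 7 higher. CBF5 was not called without LHS replicate 2, and NOP56 was not called without either LHS library, a lone library being assumed to vary like the other groups.

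**Figure D2:**
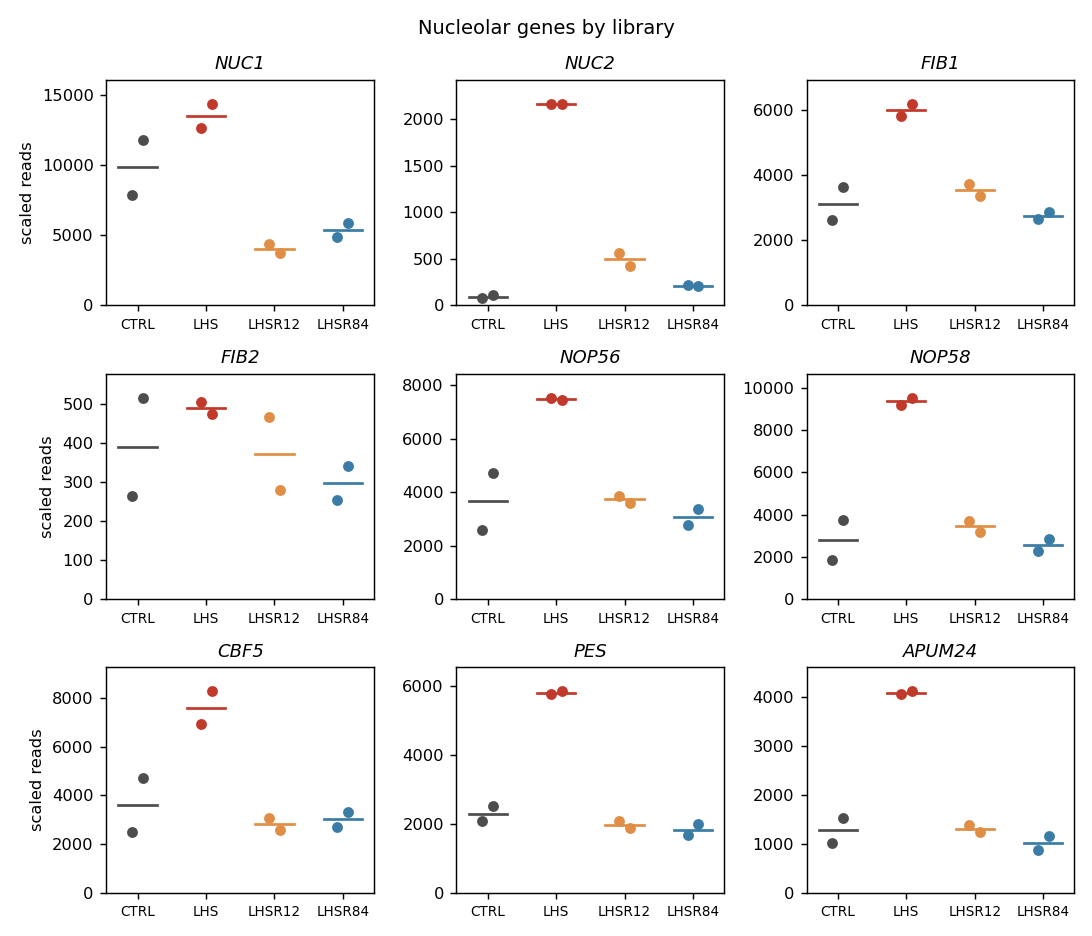
Scaled reads of the 9 members (vertical axes from 0, a scale per gene) in the 2 libraries of each group (points) with their mean (line). NUC2 stood at 2162 and 2157 in LHS and at 77.2 and 107 in CTRL, and FIB2 overlapped between LHS and CTRL.

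The nucleolins differed most from each other. NUC2 (AT3G18610, chr3:6404053-6407946, minus strand) is the minor nucleolin gene of unstressed plants. Its CTRL libraries held 77.2 and 107 scaled reads and its LHS libraries 2162 and 2157. In LHSR12 it was at 562 and 422, and in LHSR84 at 213 and 203. No 2 groups overlapped, and the order was LHS, LHSR12, LHSR84, CTRL. The CTRL values rest on 57 and 100 reads. NUC2 rose by 4.55 on the log2 scale in LHS (SE 0.19, limma adjusted p = 5.19e-07), a 23.5-fold rise on the scale of log2 of the value plus 1. Only 441 of the 24624 gene loci had a larger log2 fold change. In LHSR12 the level had fallen by 2.15 from LHS (SE 0.19, adjusted p = 2.59e-05) and was still 2.41 above CTRL (adjusted p = 2.74e-05). It dropped by a further 1.22 from LHSR12 to LHSR84 (adjusted p = 0.00168), where it was 1.18 above CTRL (SE 0.19, adjusted p = 0.00494). That last call was lost without LHSR84 replicate 1 (log2 fold change 1.15, adjusted p = 0.0537) and in a fit of the 2 groups alone (adjusted p = 0.134).

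NUC1 (AT1G48920, chr1:18098081-18101732, plus strand), the main nucleolin gene, stood at 7901 and 11824 scaled reads in CTRL and 12664 and 14369 in LHS. It was at 4341 and 3726 in LHSR12 and 4903 and 5892 in LHSR84. The groups did not overlap with CTRL or, for the 3 treated groups, with each other. In LHS it was 0.48 above CTRL on the log2 scale (SE 0.20, 95% interval 0.03 to 0.93), which was not called (limma adjusted p = 0.0582). It was called with a mean of at least 10 as the filter (adjusted p = 0.0478), with the replicate block (adjusted p = 0.0465) and without CTRL replicate 2 (log2 fold change 0.77, adjusted p = 0.00379). Without CTRL replicate 1 it was 0.19 and not called. NUC1 fell by 1.75 from LHS to LHSR12 (SE 0.20, adjusted p = 9.76e-05) and was then lower than CTRL, at -1.26 on the log2 scale (SE 0.20, limma adjusted p = 0.00107). At LHSR84 it was at -0.85 (SE 0.20, adjusted p = 0.0246). This last call was lost when any library except CTRL replicate 1 was left out, with values from -0.98 to -0.56 in those fits. NUC1 was thus the member called lower than CTRL in both recovery groups, while NUC2 was the member called higher in both.

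The ratio of NUC2 to NUC1 does not depend on the scaling of a library. On the log2 scale it stood at -6.66 and -6.77 in the CTRL libraries and at -2.55 and -2.74 in those of LHS. It was -2.95 and -3.14 after 12 h of recovery, and -4.52 and -4.85 after 84 h. No groups overlapped, and the 4 groups differed (exact permutation test over 105 arrangements of the 8 libraries in pairs, one-sided on F, p = 0.00952, the smallest possible, and p = 0.0381 adjusted over 4 paralog pairs). Per kilobase of transcript, NUC2 made up 0.926% ± 0.0482 of the nucleolin level of CTRL and 13.7% ± 1.08 of that of LHS. Its share was 10.7% ± 0.896 in LHSR12 and 3.71% ± 0.578 in LHSR84 (SD, n = 2 each). The coding sequences of the nucleolins are 71.8% identical over 1591 aligned bases, and their longest shared run is 32 bases.

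**Figure D3:**
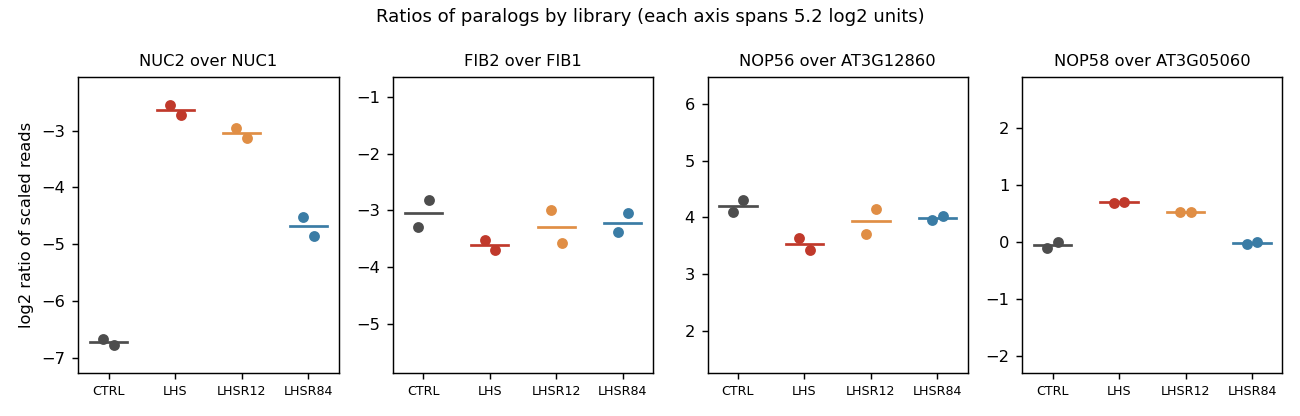
Log2 ratios of scaled reads of 4 paralog pairs in each library (points) with the group mean (line), each vertical axis spanning the same range in log2 units. NUC2 over NUC1 ran from -6.77 to -2.55, and NOP58 over AT3G05060 was above 0.5 in LHS and LHSR12 and near 0 in CTRL and LHSR84.

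Genes of the box C/D core rose in LHS except FIB2. FIB1 (AT5G52470, chr5:21294147-21296819, plus strand) was at 2602 and 3632 scaled reads in CTRL and at 5804 and 6178 in LHS. LHSR12 held 3723 and 3340, and LHSR84 2652 and 2847. It rose by 0.96 on the log2 scale (SE 0.16, limma adjusted p = 0.000656) and fell by 0.76 from LHS to LHSR12 (SE 0.16, adjusted p = 0.00272). In LHSR12 its difference from CTRL was 0.20 (95% interval -0.16 to 0.55), with the libraries on either side of CTRL replicate 2.

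FIB2 (AT4G25630, chr4:13074090-13076432, plus strand), the less abundant fibrillarin gene here, was at 264 and 517 scaled reads in CTRL and 505 and 475 in LHS. It was at 467 and 279 in LHSR12 and 255 and 342 in LHSR84. The CTRL libraries spanned the range of all others but LHSR84 replicate 1. FIB2 was not called in any of the 5 comparisons, and its log2 fold change in LHS was 0.40 (SE 0.33, 95% interval -0.36 to 1.17, adjusted p = 0.314). It was 0.89 without CTRL replicate 2 (adjusted p = 0.034) and -0.08 without CTRL replicate 1. The log2 ratio of FIB2 to FIB1 was -3.05 ± 0.343 in CTRL and -3.61 ± 0.126 in LHS (SD, n = 2 each), and the groups were not shown to differ (exact permutation test, p = 0.429, adjusted p = 0.429). A smaller change of FIB2 than of FIB1 was thus not shown beyond the spread between libraries. The 2 coding sequences are 84.8% identical with a longest shared run of 44 bases, so some reads may have been shared or dropped in counting.

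NOP56 (AT1G56110, chr1:20984273-20986952, minus strand) had 2586 and 4725 scaled reads in CTRL and 7530 and 7460 in LHS. It had 3851 and 3599 in LHSR12 and 2775 and 3369 in LHSR84. LHS was above all others, and both recovery groups overlapped with CTRL. The rise in LHS was 1.10 on the log2 scale (SE 0.24, limma adjusted p = 0.00358), followed by a fall of 1.01 to LHSR12 (adjusted p = 0.00625). The rise was not called without LHS replicate 1 or 2 (limma adjusted p = 0.059 and 0.0584), with no filter (0.0705) or in a fit of the 2 groups alone (0.0595), and was 0.67 without CTRL replicate 1. The fall was not called without any one of the 4 libraries compared (adjusted p from 0.0548 to 0.0794) or with no filter (0.0962). Its paralog AT3G12860 was scarcer, at 194 ± 61.3 scaled reads in CTRL and 651 ± 62.1 in LHS (SD, n = 2 each), and rose by 1.78 (limma adjusted p = 0.000309). The log2 ratio of NOP56 to this paralog was 4.20 ± 0.153 in CTRL and 3.53 ± 0.147 in LHS (SD, n = 2 each), and was not shown to differ among groups (exact permutation test, p = 0.114, adjusted p = 0.152).

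NOP58 (AT5G27120, chr5:9540861-9544065, plus strand) rose by about as much as APUM24 in LHS, within their SE. CTRL held 1873 and 3766 scaled reads, LHS 9218 and 9546, LHSR12 3703 and 3194, and LHSR84 2261 and 2824. The LHS libraries were far above the others, while both recovery groups overlapped with CTRL. NOP58 rose by 1.82 in LHS (SE 0.28, limma adjusted p = 0.000467) and fell by 1.45 to LHSR12 (SE 0.28, adjusted p = 0.00196). The fall was not called with no filter on low values (limma adjusted p = 0.0531). Its paralog AT3G05060 was at 2905 ± 1246 scaled reads in CTRL, beside 2820 ± 1338 (SD, n = 2 each) for NOP58, and rose by 1.06 to 5778 ± 104 in LHS (SD, n = 2). Here the log2 ratio moved with the groups, from -0.06 ± 0.0735 to 0.70 ± 0.00963 with heat. It was 0.53 ± 0.00752 in LHSR12 and -0.02 ± 0.0223 in LHSR84 (SD, n = 2 each), and the groups differed (exact permutation test, p = 0.019, adjusted p = 0.0381). NOP58 gained on its paralog in heat and after 12 h, and the ratio was near its CTRL value at LHSR84. Coding sequences of this pair are 82.5% identical, with a longest shared run of 41 bases, so here too some reads may have been shared or dropped in counting.

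CBF5 (AT3G57150, chr3:21153815-21156075, minus strand), the one member of the box H/ACA particle, was at 2513 and 4694 scaled reads in CTRL and 6911 and 8257 in LHS. It stood at 3054 and 2586 in LHSR12 and at 2714 and 3328 in LHSR84. LHS did not overlap with any group, and the recovery libraries all lay within the CTRL range. CBF5 rose by 1.14 in LHS (SE 0.26, limma adjusted p = 0.00465) and fell by 1.43 to LHSR12 (SE 0.26, adjusted p = 0.00155). The rise was not called without LHS replicate 2 (limma adjusted p = 0.0869), with no filter (0.0843) or in a fit of the 2 groups alone (0.0648), and was 0.69 without CTRL replicate 1.

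PES (AT5G14520, chr5:4680540-4684472, minus strand) went from 2085 and 2502 scaled reads without heat to 5757 and 5827 in LHS, then to 2075 and 1868 in LHSR12 and 1667 and 1990 in LHSR84. LHS was above and both recovery groups were below CTRL with no overlap. The rise of 1.34 in LHS (SE 0.13, limma adjusted p = 3.33e-05) and the fall of 1.56 to LHSR12 (SE 0.13, adjusted p = 1.90e-05) were called. The differences from CTRL were -0.21 in LHSR12 (adjusted p = 0.22) and -0.33 in LHSR84 (adjusted p = 0.15), neither called.

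APUM24 (AT3G16810, chr3:5723222-5727664, minus strand) held 1019 and 1522 scaled reads in CTRL and 4051 and 4103 in LHS. LHSR12 libraries were at 1374 and 1243, those of LHSR84 at 881 and 1152. LHS was again separate, and both recovery groups overlapped with CTRL. The rise in LHS was 1.71 (SE 0.19, limma adjusted p = 8.13e-05), and the fall to LHSR12 was 1.64 (SE 0.19, adjusted p = 0.000126).

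**Figure D4:**
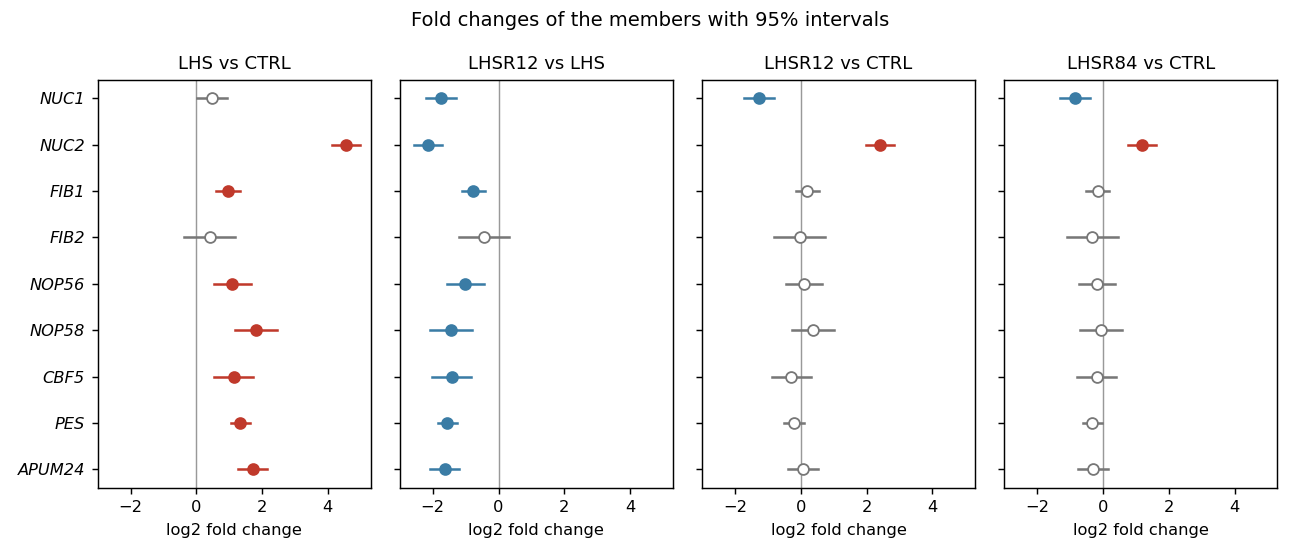
Log2 fold changes of the 9 members in 4 comparisons (points) with 95% intervals (lines) from limma. Filled points were called (red higher, blue lower) and open points were not. NUC2 stood at 4.55 in LHS against CTRL, and NUC1 and NUC2 lay on opposite sides of 0 in both recovery groups against CTRL.

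Per kilobase of transcript the CTRL levels ran from 4721 ± 1328 scaled reads for NUC1 to 43.8 ± 10.1 for NUC2. Between them stood FIB1 at 2259 ± 528, NOP56 at 1925 ± 797, CBF5 at 1594 ± 682, NOP58 at 1334 ± 633, PES at 1060 ± 136, APUM24 at 561 ± 157 and FIB2 at 292 ± 134 (SD, n = 2 each). The neighbours from FIB1 to NOP58 differ by less than their spread. In LHS the order was NUC1 (6470 ± 577), NOP58 (4438 ± 110), FIB1 (4341 ± 192), NOP56 (3947 ± 25.8), CBF5 (3354 ± 421), PES (2677 ± 23.0), APUM24 (1800 ± 16.4), NUC2 (1025 ± 1.65) and FIB2 (366 ± 15.9). NUC2 passed FIB2 between these groups, and NOP58 and FIB1 were within their spread of each other.

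Most members fell together in the first 12 h of recovery. From LHS to LHSR12, 8 members fell and 0 rose, with FIB2 the exception at -0.44 (limma adjusted p = 0.284), beside 31.6% of gene loci called lower and 32.3% called higher (38.9% and 33.3% of those with a mean of at least 200). Their median was -1.45, against 0.01 for all gene loci tested. In the edgeR and DESeq2 fits LHS replicate 2 was again the only LHS library. For members higher, the count was also 0 at an unadjusted p below 0.05 and with edgeR and DESeq2, and both tools called 8 lower.

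Against CTRL, 1 member (NUC2) was higher and 1 (NUC1) lower in LHSR12, beside 24.4% of gene loci called higher and 21.7% called lower (25.5% and 24.8% of those with a mean of at least 200). For the other 7 members the log2 fold change lay between -0.29 and 0.37, and the widest 95% interval, that of FIB2, ran from -0.80 to 0.73. Without CTRL replicate 2 the counts were 4 higher and 1 lower, and without CTRL replicate 1 they were 1 higher and 2 lower. In LHSR84 the same 2 members were called against CTRL, 1 higher and 1 lower, beside 8.94% and 5.32% of gene loci (10.4% and 6.62% of those with a mean of at least 200). The other 7 members lay between -0.33 and -0.07. These comparisons share the CTRL libraries. Between LHSR12 and LHSR84, NUC2 alone was called, as lower, beside 19.3% of gene loci called lower and 17.9% called higher (21.4% and 21.3% of those with a mean of at least 200). The count of members higher was 0 with limma (0 at an unadjusted p below 0.05), 0 with edgeR (0) and 0 with DESeq2 (1). Without either CTRL library 3 members were called lower and 1 higher.

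The CTRL libraries differed in these genes in one direction. CTRL replicate 2 was above replicate 1 in 9 of 9 members, with a median ratio of 1.5, and in 55 of 59 other ribosome biogenesis genes, with a median ratio of 1.45. Over 14338 gene loci with a mean of at least 200 scaled reads, the median ratio was 0.981, and replicate 2 was the higher in 46.5%. The part of this difference between the control libraries in the calls against CTRL is seen in the values without each of them. LHSR12 replicate 1 was above replicate 2 in 9 of 9 members as well, and LHSR84 replicate 2 was above replicate 1 in 8 of 9. The share over all gene loci was not counted for LHSR12 and LHSR84.

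The other ribosome biogenesis genes were a list of 59 chosen for their role, of which 58 passed the filter on low values. In LHS against CTRL 52 rose and 0 fell (limma), with a median log2 fold change of 1.27, beside 34.8% of gene loci called higher. LHS replicate 2 was the only LHS library in the edgeR and DESeq2 fits. No gene was lower at an unadjusted p below 0.05 (0 of 58), and edgeR and DESeq2 also called 0 lower, with 50 and 52 higher. All 19 small subunit factors rose, as did all 4 genes of RNA polymerase I and its initiation, with NRPA1, its largest subunit, at 1.91 and NRPA2 at 1.52. Of 17 large subunit factors, 14 rose. Those not called were NSN1, a nucleolar GTPase, at 0.60, NUG2, another GTPase of the large subunit, at 0.27, and REIL1, a cytosolic maturation factor, at -0.05. REIL2, the relative of REIL1, rose by 2.12.

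Partners of the members followed them in LHS. All 6 tested box C/D partners rose. They include 3 genes annotated with an L7Ae-type RNA-binding domain, AT5G20160 at 2.19, AT4G12600 at 2.15 and AT4G22380 at 1.89, and NUFIP, an assembly factor of these particles, at 0.91. The fibrillarin-family locus AT5G52490 was the one gene of the list not tested. Of the box H/ACA partners, NOP10 rose by 1.41 and the L7Ae-type gene AT5G08180 by 0.79, while the Gar1 family genes AT3G03920 (0.96) and AT5G18180 (0.92) were not called. The WD40-repeat genes AT2G40360 and AT5G15550, listed as partners of PES, rose by 1.97 and 1.55. APUM23, the Pumilio relative that also acts in precursor processing, rose by 1.24.

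The largest rises outside these complexes were in AT4G26600, annotated as a methyltransferase, at 3.35, in FKBP53, a histone chaperone of the immunophilin family, at 3.30, and in AT5G22100, of the RNA cyclase family, at 2.55. FKBP53 rose from a mean of 1426 ± 678 scaled reads to 13379 ± 2307 with heat (SD, n = 2 each). NAC082, a transcription factor linked to ribosomal stress, rose by 1.76 and was 0.47 above CTRL in LHSR12. Of the plant-type histone deacetylases, HDT2 (0.72) and HDT3 (2.27) rose, and HDT1 (-0.05) was not called.

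**Figure D5:**
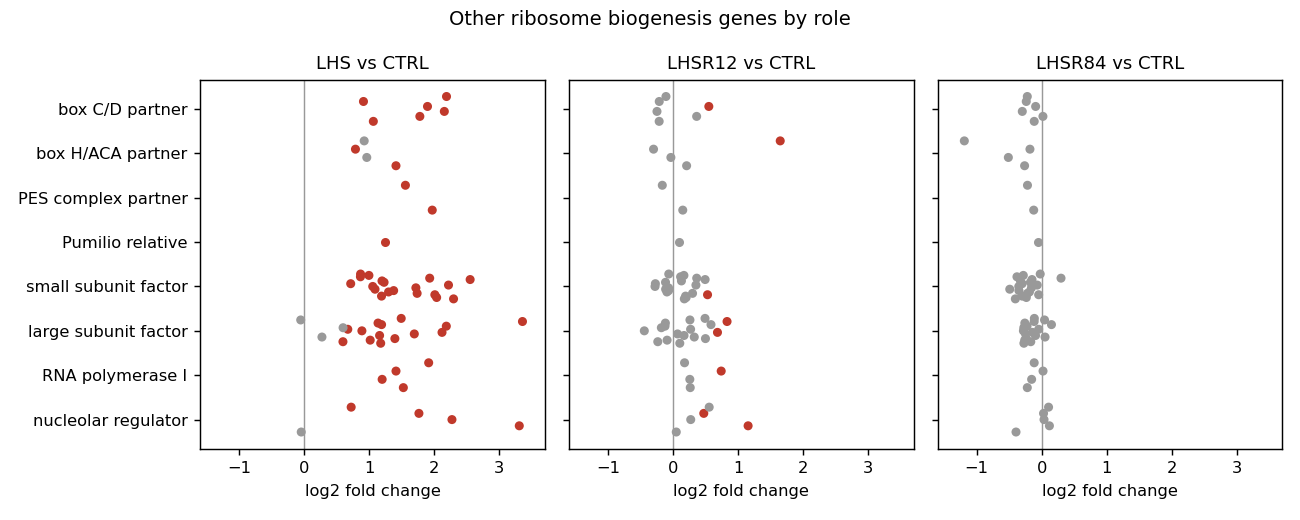
Log2 fold changes against CTRL of the 58 tested genes of the ribosome biogenesis list without the members, by role, with red for called higher and grey for not called. In LHS 52 are called higher, in LHSR12 8 and in LHSR84 0.

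In recovery the list came back towards CTRL. From LHS to LHSR12, 51 of 58 genes fell and 1 rose (REIL1, at 0.32), beside 31.6% and 32.3% of gene loci. The falls were led by AT4G26600 at -2.52, RH57, an RNA helicase, at -2.31 and FKBP53 at -2.15 outside the members' complexes. The call of REIL1 was lost with edgeR and with DESeq2 and without either LHSR12 library. In LHSR12, 8 of 58 were higher than CTRL and 0 lower, beside 24.4% and 21.7% of gene loci (limma, 1 lower at an unadjusted p below 0.05, and 0 with edgeR and with DESeq2). The Gar1 family gene AT5G18180 was 1.65 above CTRL, from 20.8 ± 5.10 to 67.3 ± 16.4 scaled reads (SD, n = 2 each). FKBP53 was 1.15 above CTRL, AT4G26600 0.83 and AT3G25940, annotated as a TFIIB zinc-binding protein, 0.74. This count moved widely, to 4 without CTRL replicate 1, with 9 lower, and to 25 without CTRL replicate 2. It was 1 and 3 without LHSR12 replicates 1 and 2, 4 without either LHS library and 5 without either LHSR84 library.

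In LHSR84, 0 of 58 were higher and 0 lower than CTRL (limma, 0 and 4 at an unadjusted p below 0.05). With edgeR and with DESeq2 the counts were also 0, and 8.94% and 5.32% of gene loci were called higher and lower. Without CTRL replicate 1 the count of lower genes was 14, and without CTRL replicate 2 that of higher genes was 2. Between LHSR12 and LHSR84, 17 of 58 fell and 0 rose, beside 19.3% and 17.9% of gene loci (limma, 0 rising at an unadjusted p below 0.05, 0 with edgeR and with DESeq2), among them AT5G18180 at -2.84, FKBP53 at -1.04, AT4G26600 at -0.95 and REIL2 at -0.83. The count falling was 8 with edgeR. It was 6 without either LHS library, 2 without LHSR12 replicate 1, 5 without LHSR12 replicate 2, 2 without LHSR84 replicate 1 and 3 without LHSR84 replicate 2.

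Markers of dividing cells did not rise with these genes. The summed level of 7 markers lay between 5112 and 6600 scaled reads in CTRL and between 2193 and 2316 in LHS. In LHSR12 it lay between 1407 and 1609, and in LHSR84 between 4419 and 5292, and no marker was at 0. In LHS 6 of 7 fell, with CYCB1;2, a mitotic cyclin, at -2.88 and KNOLLE, a syntaxin of cell division, at -2.43, in the same libraries in which 7 members rose. In LHSR12 all 7 were lower than CTRL. All 5 root markers, all 3 of leaf mesophyll and both of epidermis were also called lower in LHS and in LHSR12. The summed root level was 96770 to 120000 in CTRL, 6383 to 6442 with heat, and 24300 to 26500, then 91300 to 100400, in recovery. For mesophyll the sums were 379300 to 424400 in CTRL, 95540 to 118200 with heat, and 133400 to 139300, then 277200 to 290500, in recovery. Epidermal markers summed to 6357 to 6809 in CTRL, 1923 to 2011 with heat, and 2656 to 2814, then 5000 to 5144, in recovery. RBCS1A held most of the mesophyll sum and PYK10 most of the root sum, so the sums hide the other markers. In LHSR84, LHCB1.2 (log2 fold change -5.18) and AT2G05070, annotated as LHCB2.2 (-5.79), were still called lower than CTRL, while RBCS1A (-0.05) was not called. TIP2;3 of root (-2.56) and ATML1 of epidermis (-0.49) were also called lower, and the other 4 root markers and PDF1 were not. For comparison, 34.8% of gene loci were called higher and 33.2% lower in LHS, 21.7% lower in LHSR12 and 5.32% lower in LHSR84. The part of these marker shifts in the members' values was not tested. Of 18 tested ribosomal protein genes that the annotation words as cytosolic, 40S or 60S, most of them acidic stalk proteins, 2 rose and 3 fell in LHS, with a median of -0.06. Of 66 tested small nucleolar RNA loci, the guides of the particles, 11 rose and 12 fell in LHS, beside the same 34.8% and 33.2%, and how well such short RNAs entered the libraries is not stated.

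Across the 8 libraries, NUC1, NUC2 and FIB2 ran least closely with the other members. Pearson's r of a member with the mean of the other 8, on centred log2 values, was 0.991 for NOP58 and APUM24, 0.987 for FIB1, 0.981 for NOP56, 0.962 for PES, 0.945 for CBF5, 0.78 for NUC2, 0.735 for FIB2 and 0.66 for NUC1. These are descriptions over libraries that share 4 conditions. Outside the list, genes most like the members' mean among 7764 with a symbol and a mean of at least 100 scaled reads were PPAN (r = 0.999), EDA14 (0.996), MTA (0.995), RRP4 (0.995), rps15ab (0.993), NRP2 (0.993), ROC2 (0.992), EIF2 GAMMA (0.992) and DOT4 (0.992). PPAN, annotated as a PETER PAN-like protein, held 619 and 1005 scaled reads in CTRL, rose to 2101 and 2196 in LHS and stood at 981 and 844, then 658 and 768, in recovery. RRP4 is annotated as a ribosomal RNA processing factor and MTA as an mRNA adenosine methylase. An r above 0.8 was found for 91.2% of 57 compared genes of the ribosome biogenesis list and for 26.0% of 16940 gene loci.

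Overlapping annotated genes touch 4 members. NUC1 overlaps GH9C1 on the opposite strand by 90 bases, and NOP56 overlaps AT1G56105 on the opposite strand by 130 bases. FIB1 and FIB2 each contain a small nucleolar RNA gene, U60.1F and U60.2F, on the same strand, at means of 3.76 and 4.26 scaled reads. Whether counting used the strand is not given in the sources used here.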

How the data were processed

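RNA was measured in 8 seedling libraries, strand-specific and from TRIzol extracts per the labels. Tools in the submitters' processing notes, listed without roles, are DESeq2 1.14.1, HTSeq 0.9.1, STAR 2.5.3a and CASAVA, and the build is TAIR10. The deposited values are a signal per locus: each library's smallest nonzero value divides 100% of its values to a whole number (tolerance 0.001), so they are read counts over a factor per library. Reads were not recovered for LHS replicate 1, whose step was 1.00142, so count tests used 7 libraries. LHS replicate 2 was the only LHS library in them.

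The main test was limma-trend (limma 3.58.1, R 4.3.3), two-sided, on log2 of the value plus 1, in one fit of 8 libraries over 27638 loci with a mean of at least 1, with Benjamini-Hochberg adjustment over all loci and calls below 0.05. The edgeR test fixed for counts was not the main test because the table holds no counts. The replicate libraries were treated as unpaired. In simulated libraries (LHS vs CTRL, 27247 loci), sets of 50 loci were changed by known folds. The share called was 10% for 1.5-fold, 60% for 2-fold and 100% for 4-fold and for 8-fold changes, with 3 false calls among 138. The spread between simulated libraries was assumed, and far fewer loci were changed than the 18381 of 27638 called in the real comparison. These shares are therefore not the power or the error rate of the reported test. Counting precision was high at these depths, and NUC2 in CTRL rests on the fewest reads of a member. Intervals are limma's 95% intervals.

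The members and lists were chosen with earlier results of these data known. All 9 members are named, with every partner in a complex, and in each comparison the 3 largest called rises and 3 largest falls of the other list genes. Similar genes are the 10 with the highest r, of which 1 is not reported here. The list of ribosomal protein genes was narrowed to product wording, since symbols alone also took disease resistance genes. The annotation (RefSeq TAIR10.1, 32835 of 33323 gene loci matched) gave names, lengths and promoter sequences, and no coordinates came from the table. Alternatives were a pseudocount of 0.1, no filter, a mean of at least 10, TMM scaling, gene loci only, the 2 groups compared, a replicate block, a 2-fold minimum, an adjusted p below 0.01, each library left out, and edgeR 4.0.16 and DESeq2 1.42.0 on recovered reads.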

Additional observations from a re-analysis of the deposited data

How the results depend on the processing

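The counts of members and of list genes that rose in LHS, and that fell from LHS to LHSR12, stayed within 1.5 times of the reported counts under all alternatives. Leaving out each library gave 5 to 9 members and 42 to 54 list genes higher in LHS, and 7 to 8 members and 43 to 52 list genes lower from LHS to LHSR12. Counts against CTRL in recovery are small and moved. Leaving out each library gave 1 to 4 members higher and 1 to 2 lower in LHSR12, 0 to 1 higher and 0 to 2 lower in LHSR84, and 0 to 1 higher and 1 to 3 lower from LHSR12 to LHSR84. For list genes the ranges were 1 to 25 higher and 0 to 9 lower in LHSR12, 0 to 2 higher and 0 to 14 lower in LHSR84, 0 to 1 higher from LHS to LHSR12, and 2 to 24 lower from LHSR12 to LHSR84. In LHSR84 against CTRL, no filter and the fit of 2 groups each left 0 members higher and 0 lower, and the 2-fold minimum and the adjusted p of 0.01 left 0 lower. List genes higher in LHSR12 numbered 2 with no filter, 2 with 2 groups only, 2 with the 2-fold minimum and 2 at the adjusted p of 0.01. The rise of REIL1 from LHS to LHSR12 gave 0 with edgeR, with DESeq2, with the 2-fold minimum and at 0.01. List genes lower from LHSR12 to LHSR84 numbered 2 with no filter, 8 with edgeR, 2 with the 2-fold minimum and 2 at 0.01. The cause was not tested.

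Directions turned only in uncalled values, with a library left out. Leaving out each library, the log2 fold change of FIB2 in LHS ran from -0.0790 to 0.887. In LHSR12 against CTRL the range was -0.0426 to 0.438 for FIB1, -0.517 to 0.449 for FIB2, -0.344 to 0.526 for NOP56, -0.131 to 0.876 for NOP58, -0.740 to 0.162 for CBF5 and -0.220 to 0.359 for APUM24. In LHSR84 against CTRL it was -0.402 to 0.0788 for FIB1, -0.805 to 0.162 for FIB2, -0.628 to 0.242 for NOP56, -0.576 to 0.432 for NOP58 and -0.643 to 0.258 for CBF5. From LHSR12 to LHSR84 it was -0.657 to 0.0819 for FIB2, -0.0505 to 0.244 for CBF5 and -0.240 to 0.0155 for PES. The LHS minus CTRL change of the log2 ratio of FIB2 to FIB1 ran from -0.80 to -0.31. The replicate numbers do not pair the libraries: deviations of same-numbered libraries correlated between groups at r = -0.114 to 0.0923. With the replicate block 8 members rose in LHS in place of 7, and 7 list genes were higher in LHSR12 and 16 lower from LHSR12 to LHSR84. TMM scaling, edgeR and DESeq2 moved the median of all loci by at most 0.043 on the log2 scale.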
